A study of Mus musculus with 30 samples.

Results

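Expression of the leukaemia inhibitory factor (LIF) and STAT3 pathway was followed in mouse embryonic stem cells that lose regulators of cohesin, the ring-shaped complex that extrudes chromatin loops. The genes were the receptor subunits Lifr, Osmr and Il6st, the kinase Jak1, the transcription factor Stat3, the inhibitor Socs3, and Pim1, Pim3 and Gbx2, which are reported targets of STAT3. They were selected by symbol as members of the pathway, with earlier results of these data known, and are 9 of the 55421 genes in the count table. All 9 were among the 19868 genes that passed the filter on low counts, although Osmr had at least 10 counts in only 13 of the 30 libraries.

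LIF is a secreted cytokine that binds LIFR, and the pair recruits gp130, the shared signalling subunit encoded by Il6st. JAK kinases bound to the receptor tails, JAK1 foremost, phosphorylate STAT3, which then dimerises, enters the nucleus and activates genes, among them Socs3. SOCS3 protein binds gp130 and JAK kinases and dampens the signal. In mouse embryonic stem cells this pathway sustains self-renewal, and LIF is a routine supplement of their medium.

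The cells were derivatives of the male mouse embryonic stem cell line E14, of the 129P2/Ola background. All groups grew on gelatin in medium with serum, LIF, the MEK inhibitor PD0325901 and the GSK3 inhibitor CHIR-99021, so no group lacked the cytokine. Every line carries Tir1, a plant F-box protein that directs proteins tagged with an auxin-inducible degron (AID) to destruction once auxin is added. The control line, called TIR1 here, carries Tir1 alone. The PDS5AB line carries PDS5A-AID and PDS5B-AID, and the WAPL line carries WAPL-AID. The PDS5AB-NIPBL line carries PDS5A-AID, PDS5B-AID, NIPBL-FKBP and RAD21-Halo, and the WAPL-NIPBL line carries WAPL-AID, NIPBL-FKBP and RAD21-Halo. FKBP is a second degron, which responds to the compound dTAG-13. PDS5A, PDS5B and WAPL are cohesin regulators, WAPL being its release factor, NIPBL is its loader, and RAD21 is a core subunit. Untreated cells of each line and cells treated for 24 h were sampled, with 3 polyadenylated RNA libraries in each of 10 groups. TIR1, PDS5AB and WAPL cells received 500 µM auxin, and the PDS5AB-NIPBL and WAPL-NIPBL lines received 500 µM auxin with 500 nM dTAG-13. Each genotype is 1 named cell line, RAD21-Halo is found only in the lines with NIPBL-FKBP, and the TIR1 cells received no dTAG-13. The labels do not say whether replicates are separate cultures, so p-values measure only the spread between these libraries.

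Library totals ran from 19632704 to 45539021 counted fragments. In the label numbering of the libraries, numbers up to 21 are the PDS5AB libraries and untreated TIR1, and numbers from 25 are all others, auxin-treated TIR1 included. The labels do not say what the numbers mark. Any difference between these runs of numbers cannot be told apart from the TIR1 treatment effect, or from the untreated level of the WAPL, PDS5AB-NIPBL and WAPL-NIPBL lines against TIR1. The treatment effects of the degron lines and the comparison of untreated PDS5AB with untreated TIR1 each lie within 1 run. Degrons act on protein, so transcripts of the tagged genes do not test the loss of the proteins. As group means in CPM (counts scaled to the library total after TMM normalisation), Pds5a stood at 60.4 to 99.5 CPM in the 4 groups with PDS5A-AID and at 186 to 267 CPM in the other 6. Nipbl means were 65.0 to 121 CPM in the 4 groups with NIPBL-FKBP and 134 to 172 CPM in the other 6. Its single libraries overlapped, with up to 127 CPM in untreated PDS5AB-NIPBL and down to 121 CPM in treated WAPL cells. Pds5b and Wapl did not separate the lines in this way. Pds5b stood at 113 CPM in untreated PDS5AB and 110.0 CPM in untreated TIR1 cells. Wapl stood at 176 CPM in untreated WAPL, 298 CPM in untreated WAPL-NIPBL and 291 CPM in untreated TIR1 cells, and Nipbl at 121 CPM in untreated PDS5AB-NIPBL, 70.0 CPM in untreated WAPL-NIPBL and 134 CPM in untreated TIR1 cells.

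All 8 embryonic stem cell markers examined (Pou5f1, Sox2, Nanog, Esrrb, Zfp42, Fgf4, Utf1 and Dppa5a) were detected in every library, as the labelled cell type requires. The 6 fibroblast-like feeder markers summed to between 4.35 and 21.9 CPM over the libraries, with Dcn at 0 counts in 23 of 30 and Postn at 0 in 17.

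The promoter of a gene is shown here where the results below turn on it, as 250 bases before to 50 after the start in RefSeq's annotation of GRCm38.p6. Entries were found for all 9 genes, in 11 windows. Both strands were searched for the STAT motif TTCCNGGAA, of which 0 windows of these genes held a match, against 1.15% of 32851 promoter windows of the same length. The looser motif TTCNNNGAA, which includes every match of the first, occurred in 8.3% of the 32851 windows. Among the 9 genes it occurred in 1 window, that of Socs3 on chromosome 11, where the first base of the match lies at -154 from the start. Capitals mark that match. Pim3, which fell in every line, and Gbx2, which had the largest effect in PDS5AB cells, are shown for comparison and hold neither motif in these windows. A match is a description of the letters, not a measured binding site.

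Socs3 (chr11:117969317-117969616, minus strand): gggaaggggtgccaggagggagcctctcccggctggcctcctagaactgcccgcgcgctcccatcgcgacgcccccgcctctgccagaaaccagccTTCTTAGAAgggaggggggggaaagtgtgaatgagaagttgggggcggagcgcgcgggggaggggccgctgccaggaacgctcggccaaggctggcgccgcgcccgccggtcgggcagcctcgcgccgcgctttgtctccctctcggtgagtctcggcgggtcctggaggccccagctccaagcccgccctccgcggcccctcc
Pim3 (chr15:88861944-88862243, plus strand): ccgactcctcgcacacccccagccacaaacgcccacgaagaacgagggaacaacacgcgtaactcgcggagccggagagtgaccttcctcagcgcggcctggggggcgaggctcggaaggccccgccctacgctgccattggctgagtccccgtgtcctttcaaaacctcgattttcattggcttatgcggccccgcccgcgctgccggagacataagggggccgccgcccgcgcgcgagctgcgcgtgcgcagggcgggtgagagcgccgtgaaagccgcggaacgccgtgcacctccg
Gbx2 (chr1:89931127-89931426, minus strand): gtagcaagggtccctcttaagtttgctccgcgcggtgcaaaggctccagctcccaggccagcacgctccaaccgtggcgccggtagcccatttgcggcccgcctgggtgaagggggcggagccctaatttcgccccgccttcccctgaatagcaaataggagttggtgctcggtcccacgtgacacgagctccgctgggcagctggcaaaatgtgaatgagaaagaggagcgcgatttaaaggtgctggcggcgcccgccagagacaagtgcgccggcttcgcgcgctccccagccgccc

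Levels were compared between genes as CPM per kilobase of annotated exon, since longer transcripts give more fragments. By the median over the 10 groups, Socs3 was highest at 70.6 CPM per kilobase. Pim3 followed at 47.2, Pim1 at 34, Stat3 at 20.9, Gbx2 at 14.8, Il6st at 12.5, Lifr at 11.4 and Jak1 at 8.87 CPM per kilobase. Osmr, the receptor subunit for oncostatin M, stood at 0.0205 CPM per kilobase, so of the partners of gp130 among these genes LIFR is the one with abundant transcript. Gbx2, a homeobox factor, varied most of the 8 well-covered genes, with a ratio of 4.31 between its highest and lowest group means. The same ratio was 2.26 for Il6st, 2.14 for Pim3, 2.08 for Pim1, 1.98 for Lifr, 1.62 for Stat3, 1.57 for Socs3 and 1.41 for Jak1. Ordered by group mean, most neighbouring groups had libraries that overlapped: 8 of the 9 neighbouring pairs for Lifr, Socs3 and Osmr, 7 for Il6st, Jak1 and Pim1, 6 for Gbx2, 5 for Stat3 and 4 for Pim3. Treated PDS5AB cells were the lowest of the 10 groups for Lifr, Il6st, Pim1, Pim3 and Gbx2 and the highest for Jak1, Socs3 and Osmr, the last at under 1 CPM. For Pim1, Socs3 and Osmr their libraries overlapped those of the next group. Treatment called 46% of all genes in that line, and the share of all genes extreme in this group was not counted.

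In GRCm38, with gene models of GENCODE vM23 and coordinates from the count table, Lifr (ENSMUSG00000054263.12) lies at chr15:7090614-7197489, Osmr (ENSMUSG00000022146.12) at chr15:6813577-6874969 and Il6st (ENSMUSG00000021756.12) at chr13:112464070-112510086. Jak1 (ENSMUSG00000028530.14) lies at chr4:101152367-101265282, Stat3 (ENSMUSG00000004040.16) at chr11:100885098-100939540 and Socs3 (ENSMUSG00000053113.3) at chr11:117966079-117970047. Pim1 (ENSMUSG00000024014.8) lies at chr17:29490753-29496112, Pim3 (ENSMUSG00000035828.11) at chr15:88862186-88865726 and Gbx2 (ENSMUSG00000034486.8) at chr1:89927956-89931179. Lifr, Il6st, Pim1 and Pim3 are on the plus strand and the others on the minus strand, and each count is summed over all annotated exons of the gene.

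**Figure D1:**
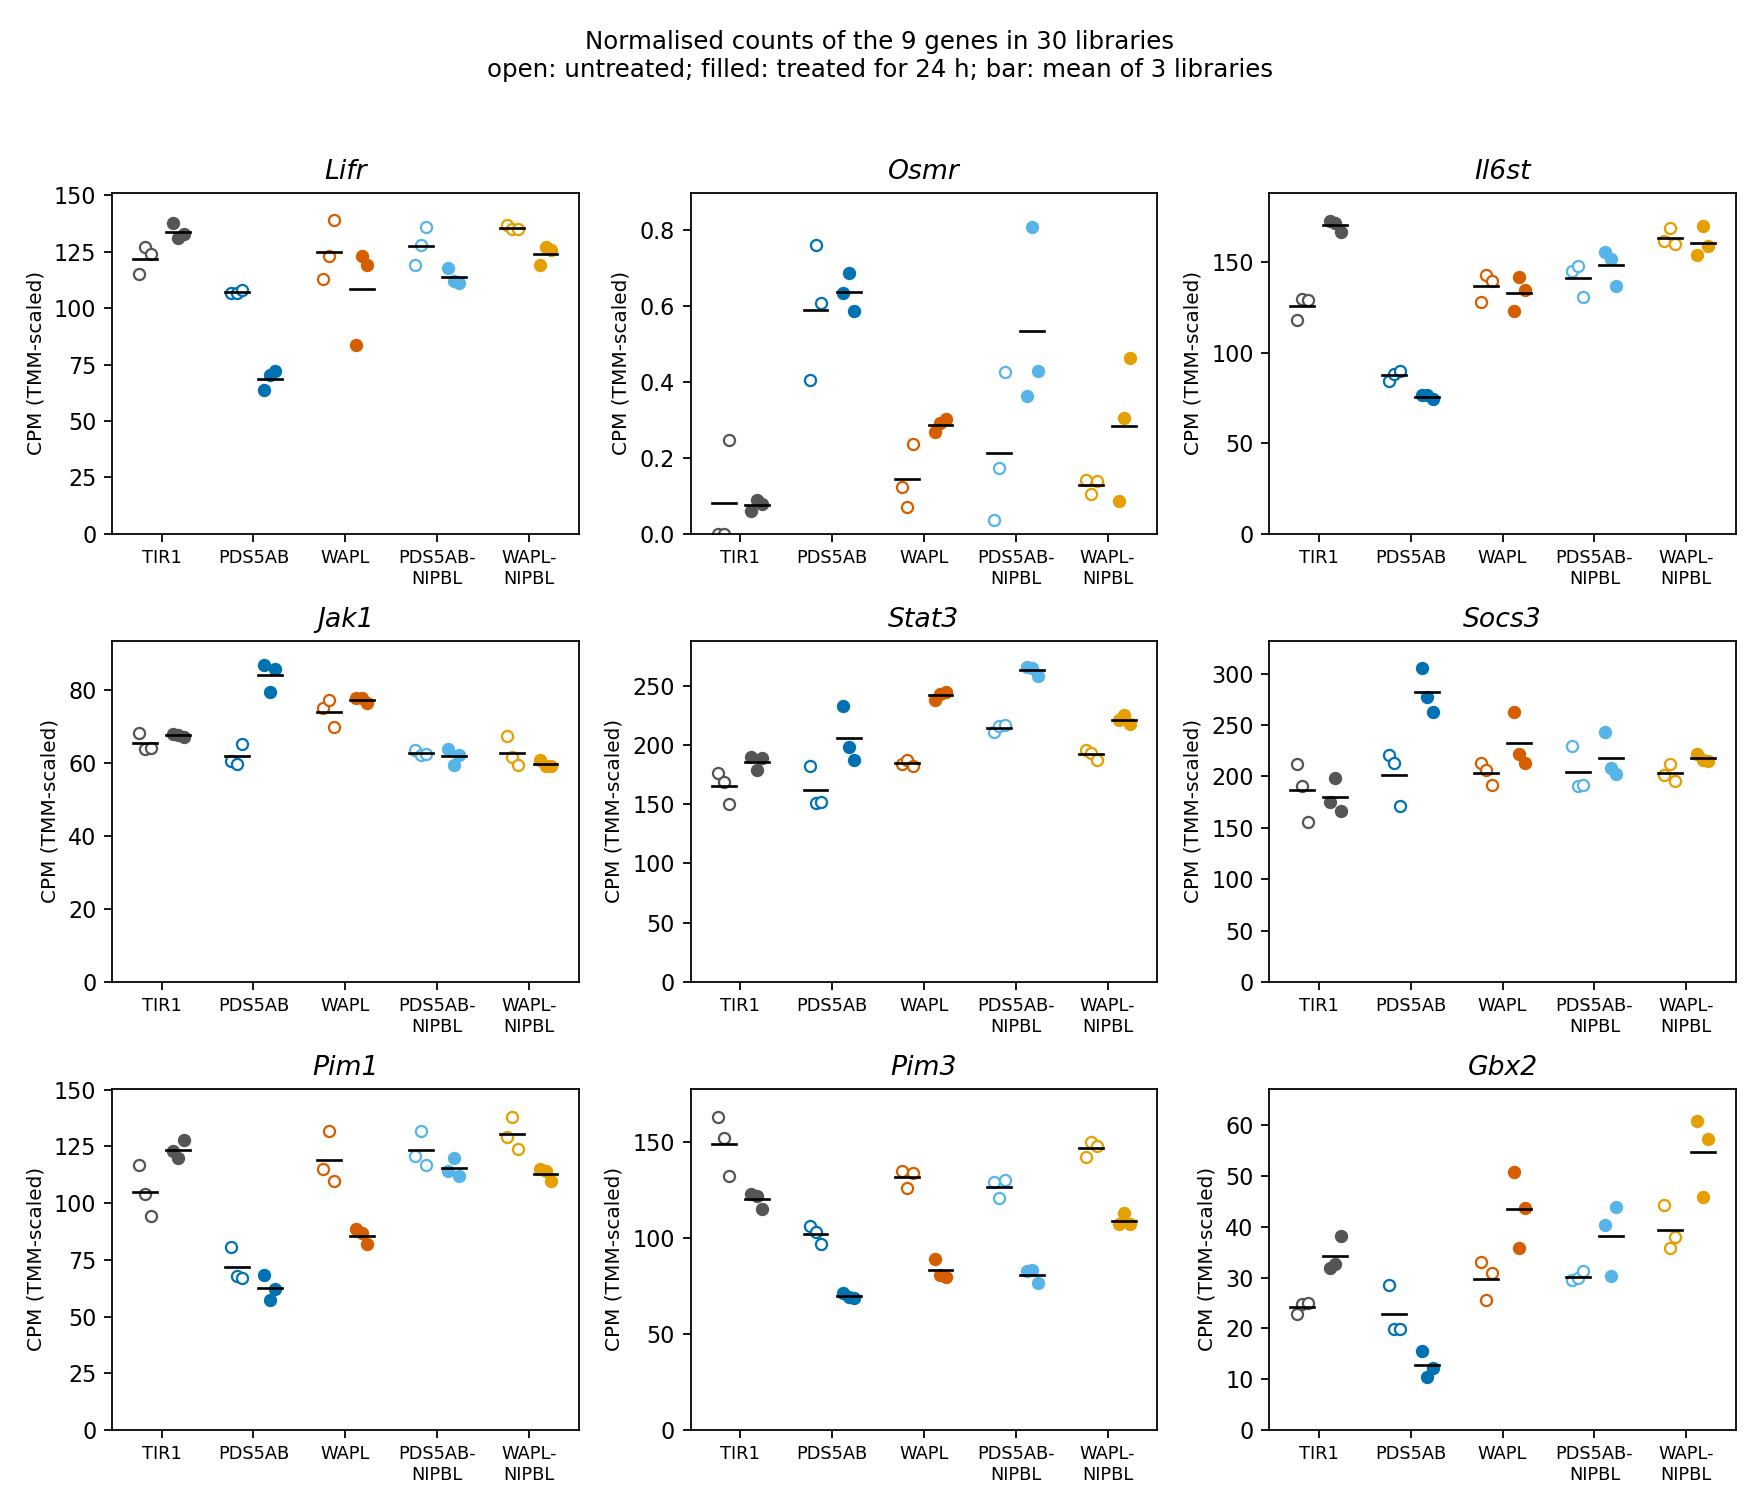
Normalised counts of the 9 genes in each of the 30 libraries, in CPM scaled by TMM on a linear axis from 0, by line. Open points are untreated libraries, filled points treated ones, and the bar is the mean of 3 libraries. The treated PDS5AB points are lowest for Lifr (64.0 to 72 CPM) and Gbx2 (10.5 to 15.6 CPM), and Pim3 is lower after treatment in all 5 lines.

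Treatment effects were tested with edgeR's quasi-likelihood test over all 19868 genes, with Benjamini-Hochberg adjustment, and the threshold for a call was an adjusted p of 0.05. In PDS5AB cells 7 of the 9 genes were called, 3 higher and 4 lower, where 46% of all tested genes were called, 25.8% higher and 20.2% lower. In WAPL cells 4 were called, 2 higher and 2 lower, against 32.8% of all genes, 17% higher and 15.8% lower. In PDS5AB-NIPBL cells 2 were called, 1 in each direction, against 19.5% of all genes, 11.4% higher and 8.06% lower. In WAPL-NIPBL cells 2 were called, 1 in each direction, against 8.57%, 5.11% higher and 3.45% lower. In the TIR1 control 4 were called, 3 higher and 1 lower, against 19.9% of all genes, 10.4% higher and 9.59% lower. With same-numbered libraries of a line as a block, the combined lines had 4 called genes each, where 32.1% (PDS5AB-NIPBL) and 20.9% (WAPL-NIPBL) of all genes were called. The block gave 8 called genes in PDS5AB and 6 in WAPL cells, where 56.6% and 45.1% of all genes were called. The median log2 fold change of the 9 genes was -0.20 in PDS5AB cells, where that of all genes was 0.04. In WAPL cells it was 0.06, in PDS5AB-NIPBL cells 0.07, in WAPL-NIPBL cells -0.02 and in TIR1 cells 0.13, where the medians of all genes lay between -0.01 and 0.01.

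**Figure D2:**
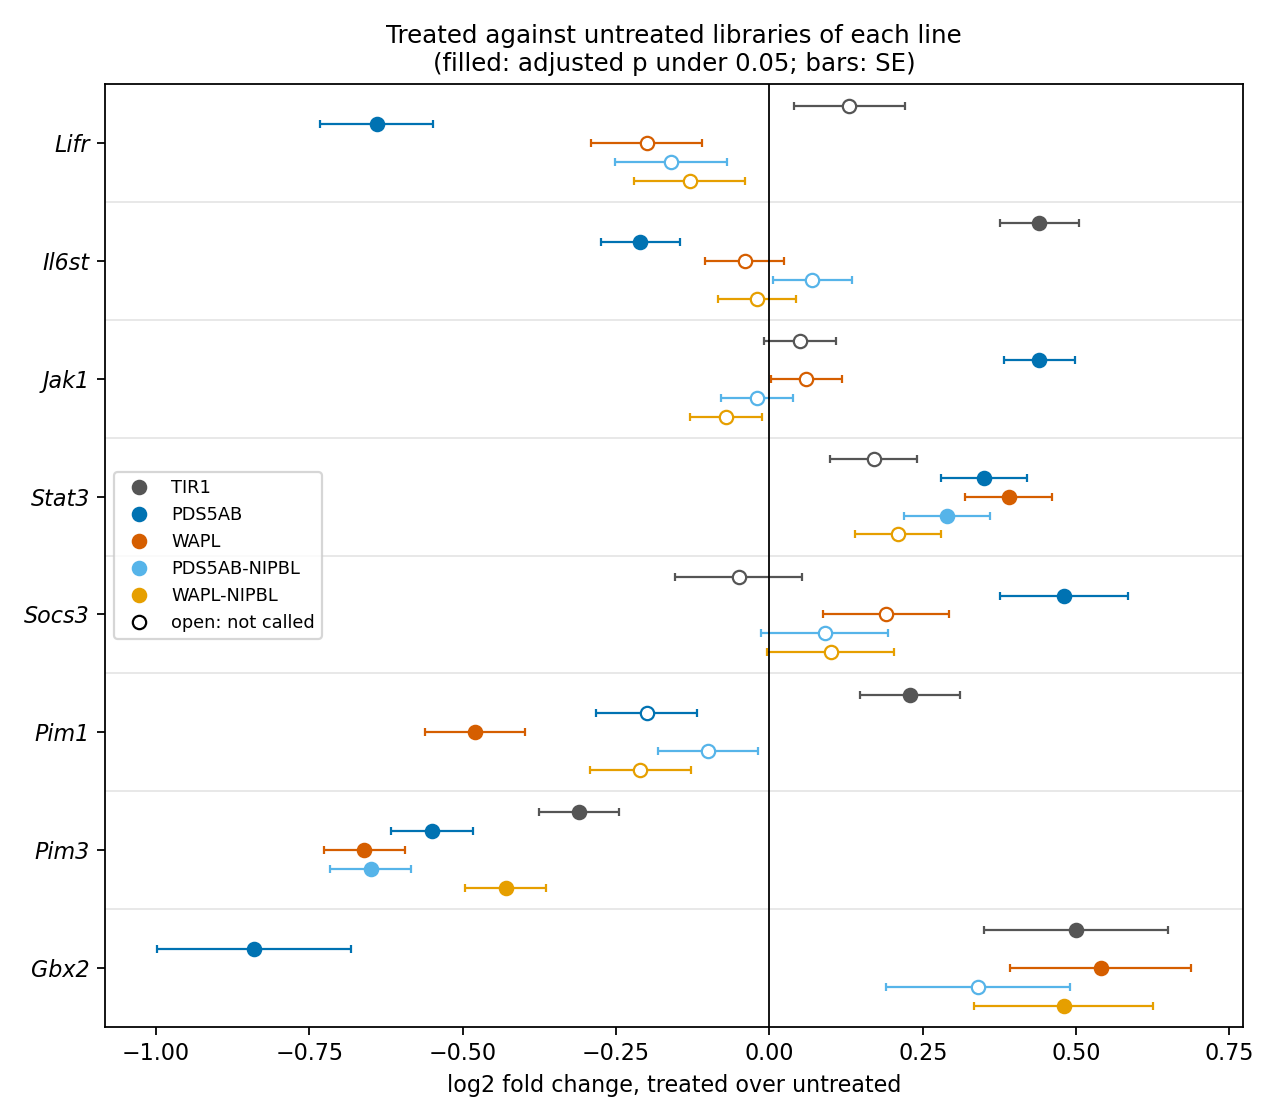
Log2 fold change of treated over untreated libraries for 8 genes (vertical axis) in the 5 lines, with SE as bars. Osmr is left out for its low counts. Filled points passed an adjusted p of 0.05. Pim3 lies below 0 in every line, Stat3 lies above 0 in every line, and Gbx2 lies at -0.84 in PDS5AB cells and between 0.34 and 0.54 in the other lines.

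Lifr, the ligand-binding receptor subunit, fell in PDS5AB cells and was not called in any other line. Its untreated PDS5AB libraries stood at 107, 107 and 108 CPM and the auxin-treated ones at 64.0, 70.3 and 72 CPM. All treated libraries lay below all untreated ones, and the gene fell by 0.64 on the log2 scale (SE 0.0917, adjusted p = 1.16e-06), a ratio of 0.64. In WAPL cells the values were 113, 123 and 139 CPM untreated and 83.8, 123 and 119 CPM treated, so the groups overlapped and replicate 1 was the low treated library. The log2 fold change there was -0.20 (SE 0.0906, adjusted p = 0.0905). With same-numbered libraries as a block the adjusted p was 0.00313, and it was 0.0484 without untreated replicate 1 and 0.0287 without treated replicate 2. Without treated replicate 1 the log2 fold change was -0.04 (adjusted p = 0.759), and without untreated replicate 3 it was -0.11 (adjusted p = 0.459). The PDS5AB-NIPBL libraries stood at 119, 128 and 136 CPM untreated and at 118, 112 and 111 CPM treated, without overlap. Their log2 fold change was -0.16 (SE 0.091), with an adjusted p of 0.23, or 0.0322 with the block. WAPL-NIPBL cells had a log2 fold change of -0.13 (SE 0.0905, adjusted p = 0.466), and TIR1 cells one of 0.13 (SE 0.0904, adjusted p = 0.318).

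Il6st, which encodes gp130, rose in the TIR1 control and fell in PDS5AB cells. The TIR1 libraries stood at 118, 130 and 129 CPM untreated and at 173, 172 and 167 CPM with auxin, with no overlap. The gene rose by 0.44 on the log2 scale (SE 0.0642, adjusted p = 1.08e-05), the smallest adjusted p of the 9 genes in that line. In PDS5AB cells it went from 84.7, 88.2 and 90.0 CPM to 76.5, 76.8 and 74.3 CPM. It fell there by 0.21 on the log2 scale (SE 0.065, adjusted p = 0.0092), again without overlap. The log2 fold changes were -0.04 in WAPL cells (adjusted p = 0.687), 0.07 in PDS5AB-NIPBL cells (adjusted p = 0.526) and -0.02 in WAPL-NIPBL cells (adjusted p = 0.892) (SE 0.0642, 0.0643 and 0.064). Treated and untreated libraries overlapped in these 3 lines.

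Osmr, which pairs with gp130 to bind oncostatin M, was close to the counting limit in most groups. Its counts were 0, 0 and 7 in untreated TIR1 libraries and 2, 4 and 3 in treated ones. PDS5AB cells had the most, with 12, 23 and 22 counts untreated and 17, 21 and 18 treated, or 0.405 to 0.76 CPM over the 6 libraries. The log2 fold change in PDS5AB cells was 0.10 (SE 0.485, adjusted p = 0.88). It was 1.02 in WAPL cells (SE 0.674, adjusted p = 0.264), where counts went from 4, 2 and 6 to 7, 10 and 10. In PDS5AB-NIPBL cells it was 1.25 (SE 0.602, adjusted p = 0.159), where counts went from 1, 4 and 13 to 8, 16 and 12. Without untreated replicate 3 of that line it was 2.35 (adjusted p = 0.0367), and without untreated replicate 1 it was 0.74 (adjusted p = 0.479). WAPL-NIPBL libraries held 3, 3 and 4 counts untreated and 2, 10 and 16 treated, with a log2 fold change of 1.21 (SE 0.697, adjusted p = 0.343), and that of TIR1 cells was -0.17 (SE 0.9, adjusted p = 0.92). With all libraries in the fit, no treatment effect on Osmr passed the test at this depth.

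Jak1, the main kinase of the LIF receptor, rose in PDS5AB cells and was not called in the other lines. It went from 60.5, 59.7 and 65.2 CPM to 86.8, 79.5 and 85.7 CPM, with no overlap, and rose by 0.44 on the log2 scale (SE 0.058, adjusted p = 3e-07). The log2 fold changes elsewhere were 0.06 in WAPL cells (adjusted p = 0.466), -0.02 in PDS5AB-NIPBL cells (adjusted p = 0.867), -0.07 in WAPL-NIPBL cells (adjusted p = 0.53) and 0.05 in TIR1 cells (adjusted p = 0.63). The libraries overlapped in each of these 4 lines, where the 24 values lay between 59.0 and 77.7 CPM.

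Stat3 was higher after treatment in all 3 same-numbered pairs of every line and was called in 3 lines. In WAPL cells it went from 184, 187 and 182 CPM to 238, 243 and 245 CPM, and rose by 0.39 on the log2 scale (SE 0.0704, adjusted p = 5.34e-05). In PDS5AB cells it went from 182, 151 and 152 CPM to 233, 198 and 187 CPM and rose by 0.35 (SE 0.0705, adjusted p = 0.00016). PDS5AB-NIPBL cells held 211, 216 and 217 CPM untreated and 266, 265 and 258 CPM treated, a rise of 0.29 (SE 0.0704, adjusted p = 0.00303). Treated and untreated libraries were separate in each of these lines. In WAPL-NIPBL cells the values were 196, 193 and 187 CPM against 221, 225 and 218 CPM. Their log2 fold change was 0.21 (SE 0.0704), with an adjusted p of 0.0625, or 0.000349 with the block and 0.0147 when only that line was fitted. TIR1 cells stood at 176, 169 and 150 CPM untreated and at 190.0, 179 and 189 CPM with auxin. The log2 fold change there was 0.17 (SE 0.0705, adjusted p = 0.0859), and the adjusted p was 0.0334 without untreated replicate 1. Without untreated replicate 3 the log2 fold change was 0.11 (adjusted p = 0.353).

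Socs3, the feedback inhibitor, rose in PDS5AB cells. It went from 221, 213 and 171 CPM to 306, 277 and 263 CPM, with no overlap, and rose by 0.48 on the log2 scale (SE 0.104, adjusted p = 0.000296), a ratio of 1.40. In WAPL cells the libraries stood at 213, 206 and 192 CPM untreated and at 263, 222 and 213 CPM treated. The log2 fold change there was 0.19 (SE 0.103), with an adjusted p of 0.168, or 0.0043 with the block. Without treated replicate 1 it was 0.10 (adjusted p = 0.517). In PDS5AB-NIPBL, WAPL-NIPBL and TIR1 cells the log2 fold changes were 0.09, 0.10 and -0.05, with adjusted p-values of 0.621, 0.656 and 0.776. Untreated libraries of this gene spread widely, from 156 to 212 CPM in TIR1 cells.

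Pim1, a serine/threonine kinase that promotes survival, fell in WAPL cells. It went from 115, 132 and 110.0 CPM to 88.4, 86.9 and 81.8 CPM, with no overlap, and fell by 0.48 on the log2 scale (SE 0.082, adjusted p = 3.36e-05). In PDS5AB cells it stood at 80.6, 67.7 and 66.8 CPM untreated and at 68.5, 57.1 and 62.0 CPM treated, lower in 3 of 3 same-numbered pairs though the groups overlapped. The log2 fold change there was -0.20 (SE 0.0829), with an adjusted p of 0.051, or 0.00293 with the block. For that comparison the adjusted p was 0.0145 without treated replicate 1, 0.0413 without untreated replicate 2, 0.0303 without untreated replicate 3 and 0.0375 with no filter on low counts. Without untreated replicate 1 the log2 fold change was -0.11 (adjusted p = 0.339). In WAPL-NIPBL cells it was lower in 3 of 3 pairs, with a log2 fold change of -0.21 (SE 0.0816). The adjusted p there was 0.119, or 0.00397 with the block and 0.0393 when only that line was fitted. PDS5AB-NIPBL cells had a log2 fold change of -0.10 (SE 0.0818, adjusted p = 0.461). In TIR1 cells Pim1 went the other way, from 117, 104 and 94.4 CPM to 123, 120.0 and 128 CPM, and rose by 0.23 (SE 0.0815, adjusted p = 0.043). This call did not hold when any one of 5 libraries was left out, with adjusted p-values of 0.119 and 0.228 without untreated replicates 2 and 3 and 0.0812, 0.0545 and 0.121 without treated replicates 1, 2 and 3. Without untreated replicate 1 the log2 fold change was 0.35 (adjusted p = 0.0075).

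Pim3, a kinase of the same family, was the only one of the 9 genes called in every line, and fell in each. In WAPL cells it went from 135, 126 and 134 CPM to 89.0, 80.6 and 79.7 CPM, and fell by 0.66 on the log2 scale (SE 0.0662, adjusted p = 4.43e-09). In PDS5AB-NIPBL cells it went from 129, 121 and 130.0 CPM to 82.7, 83.5 and 76.4 CPM and fell by 0.65 (SE 0.0667, adjusted p = 2.6e-08). PDS5AB cells went from 106, 103 and 96.6 CPM to 71.2, 69.1 and 68.8 CPM, where it fell by 0.55 (SE 0.0665, adjusted p = 7.8e-08). In none of these did treated and untreated libraries overlap. WAPL-NIPBL cells went from 142 to 150.0 CPM (range of the 3 libraries) to 107, 113 and 107 CPM, where it fell by 0.43 (SE 0.0658, adjusted p = 3.77e-05). In the TIR1 control it went from 163, 152 and 132 CPM to 123, 122 and 115 CPM and fell by 0.31 (SE 0.0655, adjusted p = 0.00104), also without overlap. TIR1 cells carry no degron-tagged protein, and their untreated and treated libraries lie in separate runs of library numbers, which cannot be told apart from auxin.

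Gbx2, a homeobox transcription factor, fell in PDS5AB cells and rose in WAPL, WAPL-NIPBL and TIR1 cells. In PDS5AB cells it went from 28.6, 19.8 and 19.9 CPM to 15.6, 10.5 and 12.1 CPM, with no overlap, and fell by 0.84 on the log2 scale (SE 0.158, adjusted p = 6.03e-05), a ratio of 0.558. In WAPL cells it went from 33, 25.5 and 30.9 CPM to 50.8, 35.9 and 43.7 CPM and rose by 0.54 (SE 0.148, adjusted p = 0.00487). In TIR1 cells it went from 22.9, 24.7 and 25.0 CPM to 31.9, 32.6 and 38.1 CPM and rose by 0.50 (SE 0.15, adjusted p = 0.0174), a call lost without treated replicate 3 (adjusted p = 0.0852). WAPL-NIPBL cells went from 44.2, 35.9 and 38 CPM to 60.9, 45.9 and 57.3 CPM, where it rose by 0.48 (SE 0.146, adjusted p = 0.037). The call did not hold without untreated replicate 2 or 3 or treated replicate 1 or 3, with adjusted p-values of 0.145, 0.124, 0.156 and 0.113. PDS5AB-NIPBL cells stood at 29.5, 29.9 and 31.2 CPM untreated and at 40.4, 30.4 and 43.8 CPM treated, with replicate 2 low. Their log2 fold change was 0.34 (SE 0.15), with an adjusted p of 0.112, or 0.000369 with the block, 0.0297 without treated replicate 2 and 0.00839 with no filter on low counts.

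Of the 2177 annotated exon bases of Gbx2, 946 are shared with D130058E05Rik on the other strand. The counting did not use strand, so in the shared bases reads of a gene and of its partner on the other strand cannot be told apart. Levels per kilobase were divided by all annotated exon bases, the shared ones included. D130058E05Rik stood at 2.56, 2.18 and 2.57 CPM in untreated and at 2.05, 1.31 and 1.14 CPM in treated PDS5AB libraries, lower in 3 of 3 pairs as Gbx2 was. In WAPL cells, where Gbx2 rose, its group means were 3.84 CPM untreated and 3.57 CPM treated. They were 3.64 and 3.27 CPM in TIR1 cells and 3.42 and 3.07 CPM in WAPL-NIPBL cells, where Gbx2 also rose. In PDS5AB-NIPBL cells the group means of D130058E05Rik were 2.4 and 2.49 CPM. Pim1 shares 488 of 3362 exon bases with Gm26885, which was under 0.8 CPM in every library. The shared bases of Stat3 and Stat5a are 72 of 9527, and those of Jak1 and Raver2 are 4 of 7227.

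Of the embryonic stem cell markers some were called lower after treatment in every line, and 0 were called higher. Their summed level went from between 5330 and 6110 CPM to between 3320 and 3740 CPM in PDS5AB cells, where 8 of 8 fell. In WAPL, PDS5AB-NIPBL and WAPL-NIPBL cells 7 of 8 fell. In TIR1 cells 3 of 8 fell, and the summed level went from between 5110 and 5510 CPM to between 4490 and 4800 CPM. Markers are counted where they passed the test. Of all genes 20.2% were called lower in PDS5AB, 15.8% in WAPL, 8.06% in PDS5AB-NIPBL, 3.45% in WAPL-NIPBL and 9.59% in TIR1 cells. The shares called higher were 25.8%, 17%, 11.4%, 5.11% and 10.4% in that order. Primitive endoderm markers (Gata6, Gata4, Sox17, Pdgfra, Sox7 and Foxa2) summed to 13.3 to 14.6 CPM in untreated and 24.8 to 28.1 CPM in treated PDS5AB cells, where 3 of 6 rose. In PDS5AB-NIPBL cells their sum went from between 7.23 and 8.68 CPM to between 21.1 and 23.2 CPM, where 2 of 6 rose. In WAPL cells it went from between 4.42 and 5.00 CPM to between 8.30 and 9.95 CPM, where 4 of 6 rose, in WAPL-NIPBL cells from between 4.51 and 4.69 CPM to between 9.99 and 11 CPM (2 of 6), and in TIR1 cells from between 3.48 and 5.33 CPM to between 6.26 and 8.30 CPM (1 of 6). Neural progenitor markers (Pax6, Sox1 and Nes) summed to 58.9 to 77.0 CPM in untreated and 84.9 to 104 CPM in treated PDS5AB cells, where 1 of 3 rose and 1 fell. In PDS5AB-NIPBL cells their sum was 63.0 to 88.2 CPM untreated and 107 to 128 CPM treated, again with 1 higher and 1 lower. The neural sum was 69.2 to 82.2 CPM untreated and 76.6 to 90.4 CPM treated in WAPL cells, 83.7 to 93.4 CPM and 97.9 to 109 CPM in WAPL-NIPBL cells, and 70.6 to 75.9 CPM and 63.8 to 74.3 CPM in TIR1 cells. Mesoderm markers (T, Mixl1 and Eomes) summed to 19.4 to 31 CPM in untreated and 16.8 to 18.5 CPM in treated PDS5AB cells, with 1 of 3 higher and 1 lower. Their sum was 9.45 to 12.3 CPM untreated and 14.8 to 17.5 CPM treated in WAPL cells, and 14.2 to 16.9 CPM and 18.4 to 23.3 CPM in WAPL-NIPBL cells, with 1 of 3 higher in each. It was 22.6 to 32.2 CPM and 20.4 to 24.0 CPM in PDS5AB-NIPBL cells and 8.98 to 13.1 CPM and 11.1 to 12.6 CPM in TIR1 cells. Between untreated lines, 2 of 3 mesoderm markers were higher in PDS5AB and in PDS5AB-NIPBL cells than in TIR1 cells. Of primitive endoderm markers 4 of 6 and 2 of 6 were, where 15.5% and 16.5% of all genes were called higher. In untreated WAPL and WAPL-NIPBL cells 1 of 3 mesoderm markers was higher, where 6.62% and 13.4% of all genes were. Another was lower in WAPL-NIPBL cells, and 0 of 6 primitive endoderm markers were called in either. Feeder markers summed to 13.5 to 14.1 CPM in untreated and 4.35 to 5.21 CPM in treated WAPL cells, where 3 of the 3 tested fell. In PDS5AB cells the feeder sum was 16.9 to 19 CPM untreated and 19.5 to 21.9 CPM treated, where 2 of the 3 rose. In these bulk libraries fewer cells of a type and less RNA per cell cannot be told apart, and the part of a changed cell mixture in the results on the 9 genes was not tested.

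The untreated lines differed before any treatment. Untreated PDS5AB cells against untreated TIR1 gave 4 called genes, 1 higher and 3 lower, where 32% of all genes were called, 15.5% higher and 16.5% lower. Il6st stood at 84.7 to 90.0 CPM against 118 to 130.0 CPM in TIR1, lower by a log2 difference of -0.52 (SE 0.0648, adjusted p = 1.6e-07). Pim1 was lower with a log2 difference of -0.55 (SE 0.0825, adjusted p = 3.33e-06) and Pim3 with one of -0.55 (SE 0.0659, adjusted p = 8.15e-08), all without overlap. Osmr was higher, with 12, 23 and 22 counts against 0, 0 and 7, and a log2 difference of 2.68 (SE 0.678, adjusted p = 0.00253). That size rests on few counts, and it was 7.12 without TIR1 replicate 3, when the TIR1 libraries left held 0 counts. Il6st and Pim3 were thus lower than in TIR1 before auxin and fell with it, in comparisons that share the untreated PDS5AB libraries.

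Untreated WAPL-NIPBL cells had 4 genes called, all higher, where 28% of all genes were called, 13.4% higher and 14.6% lower. Gbx2 stood at 44.2, 35.9 and 38 CPM against 22.9, 24.7 and 25.0 CPM in TIR1, a log2 difference of 0.70 (SE 0.151, adjusted p = 0.000811). The log2 difference was 0.38 for Il6st (SE 0.0644, adjusted p = 4.27e-05), 0.31 for Pim1 (SE 0.0818, adjusted p = 0.00521) and 0.22 for Stat3 (SE 0.0707, adjusted p = 0.0215). The Pim1 call was lost without untreated TIR1 replicate 3 (adjusted p = 0.0536). The Stat3 call was lost without TIR1 replicate 3 or WAPL-NIPBL replicate 1 or 2 (0.149, 0.0681 and 0.0628). Osmr was not called, with an adjusted p of 0.714, or 0.0368 without untreated TIR1 replicate 3, when the TIR1 libraries left held 0 counts.

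Untreated PDS5AB-NIPBL cells had 4 genes called, 3 higher and 1 lower, where 34.3% of all genes were called, 16.5% higher and 17.8% lower. Stat3 was higher by 0.38 on the log2 scale (SE 0.0707, adjusted p = 9.79e-05), with 211 to 217 CPM against 150.0 to 176 CPM. Pim3 was lower, with a log2 difference of -0.24 (SE 0.0657, adjusted p = 0.00568), a call lost without TIR1 replicate 1 (adjusted p = 0.0811). Pim1 was higher by 0.23 (adjusted p = 0.0292) and Il6st by 0.17 (adjusted p = 0.0401). The Pim1 call was lost without TIR1 replicates 2 or 3 or PDS5AB-NIPBL replicate 2 (0.0803, 0.184 and 0.122). The Il6st call was lost without TIR1 replicates 1 or 3 or PDS5AB-NIPBL replicates 1 or 2 (0.152, 0.0542, 0.0844 and 0.126), with no filter on low counts (0.0922) and in the groups alone (0.0784). Gbx2 had a log2 difference of 0.32 and an adjusted p of 0.104, which was 0.00521 with no filter and 0.0104 in the groups alone. Osmr had a log2 difference of 1.26 and an adjusted p of 0.231. Without TIR1 replicate 3 the log2 difference was 5.70 (adjusted p = 0.00618), when the TIR1 libraries left held 0 counts. It was 0.69 and 0.78 without TIR1 replicates 1 and 2 (adjusted p = 0.555 and 0.513), and without PDS5AB-NIPBL replicate 3 the log2 difference was 0.17 (adjusted p = 0.926).

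Untreated WAPL cells differed least, with 1 gene called, higher, where 14% of all genes were, 6.62% higher and 7.39% lower. Jak1 stood at 75.1, 77.1 and 69.9 CPM against 68.2, 63.8 and 64.1 CPM, higher by 0.18 on the log2 scale (SE 0.0583, adjusted p = 0.0371). This call did not hold without TIR1 replicates 2 or 3 or WAPL replicates 1 or 2 (0.138, 0.12, 0.076 and 0.147), with no filter on low counts (0.218) and in the groups alone (0.123). Pim3 had a log2 difference of -0.18 and an adjusted p of 0.0594, which was 0.00963 without TIR1 replicate 3, 0.0459 by DESeq2 and 0.379 without TIR1 replicate 1. Pim1 had one of 0.18 and an adjusted p of 0.146, or 0.0333 without TIR1 replicate 1, 0.493 without TIR1 replicate 3 and 0.524 without WAPL replicate 2. Gbx2 had one of 0.30 and an adjusted p of 0.197, or 0.0295 with no filter on low counts. Lifr and Socs3 were not called in any untreated line against TIR1. These 4 comparisons share the untreated TIR1 libraries.

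**Figure D3:**
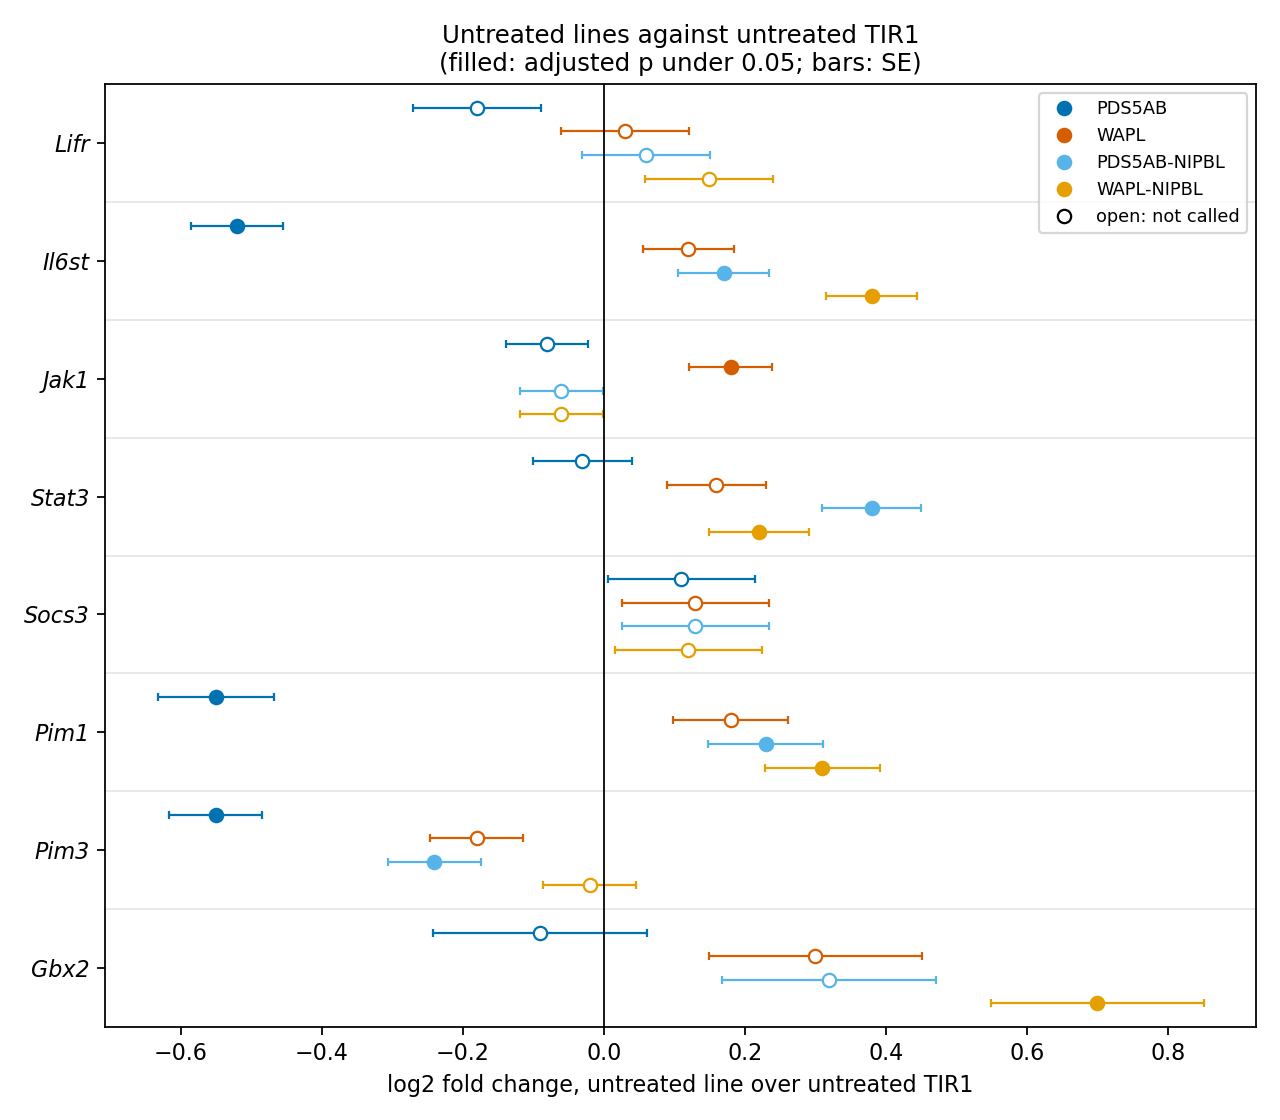
Log2 fold change of each untreated degron line over untreated TIR1 for 8 genes (vertical axis), with SE as bars. Filled points passed an adjusted p of 0.05. Untreated PDS5AB cells lie at -0.52 to -0.55 for Il6st, Pim1 and Pim3, and Gbx2 reaches 0.70 in untreated WAPL-NIPBL cells.

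Whether a degron line responded otherwise than the auxin-treated control was tested as the difference of the log2 fold changes. The 4 comparisons with the control share the TIR1 libraries. For PDS5AB minus TIR1, 6 of the 9 genes were called, 2 with a positive and 4 with a negative difference, where 26.3% of all genes were called, 13.9% positive and 12.4% negative. The differences were -1.34 for Gbx2 (SE 0.217, adjusted p = 3.17e-05), -0.78 for Lifr (SE 0.129, adjusted p = 4.2e-05) and -0.65 for Il6st (SE 0.0913, adjusted p = 4.31e-06). They were -0.43 for Pim1 (SE 0.116, adjusted p = 0.00641), 0.40 for Jak1 (SE 0.0821, adjusted p = 0.000576) and 0.54 for Socs3 (SE 0.146, adjusted p = 0.00682). The Socs3 call was lost without untreated TIR1 replicate 1 (adjusted p = 0.0502). Pim3 had a difference of -0.24 (adjusted p = 0.0594). Its adjusted p was 0.0454 by DESeq2, 0.00701 and 0.0415 without TIR1 untreated replicate 1 and treated replicate 3, and 0.0333 and 0.032 without PDS5AB untreated replicate 3 and treated replicate 1. Stat3 had a difference of 0.18 (adjusted p = 0.2), or 0.27 (0.0331) without PDS5AB untreated replicate 1, 0.04 (0.797) without PDS5AB treated replicate 1 and 0.09 (0.587) without TIR1 untreated replicate 1. With the replicate block, whose numbers did not pair the TIR1 libraries, 8 genes were called where 40.2% of all genes were, with Pim3 (adjusted p = 0.0041) and Stat3 (0.0187) added.

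For WAPL minus TIR1, 3 genes were called, all with a negative difference, where 20.7% of all genes were called, 9.86% positive and 10.9% negative. The differences were -0.71 for Pim1 (SE 0.116, adjusted p = 3.87e-05), -0.48 for Il6st (SE 0.0907, adjusted p = 0.000216) and -0.35 for Pim3 (SE 0.0929, adjusted p = 0.00666). The Pim3 fall was thus larger in WAPL cells than in TIR1 cells, whose 2 groups lie in separate runs of library numbers. Gbx2 had a difference of 0.04 (SE 0.21, adjusted p = 0.917), beside effects of 0.54 in WAPL cells and 0.50 in the control. Lifr had a difference of -0.33 (adjusted p = 0.0613), which was 0.0281, 0.0138 and 0.0368 in adjusted p without WAPL untreated replicate 1, treated replicate 2 and treated replicate 3, and 0.0249 with no filter on low counts. Without WAPL treated replicate 1 it was -0.18 (adjusted p = 0.201). Stat3 had one of 0.22 (adjusted p = 0.113), or an adjusted p of 0.0499 without untreated TIR1 replicate 3. With the block, whose numbers did not pair the TIR1 libraries, 6 genes were called where 35.4% of all genes were. Lifr (0.00112), Stat3 (0.00351) and Socs3 (0.0152) were added. Without the block Socs3 had a difference of 0.24 (adjusted p = 0.26), which was 0.13 (0.592) without TIR1 untreated replicate 1 and 0.14 (0.549) without WAPL treated replicate 1.

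The combined lines gave 2 called genes each against TIR1, all with a negative difference. Of all genes 10.1% were called for PDS5AB-NIPBL, 5.28% positive and 4.81% negative, and 7.04% for WAPL-NIPBL, 3.1% positive and 3.94% negative. For PDS5AB-NIPBL they were Il6st at -0.37 (SE 0.0908, adjusted p = 0.00707) and Pim3 at -0.34 (SE 0.0933, adjusted p = 0.0183), the latter lost without untreated TIR1 replicate 3 (adjusted p = 0.066). Pim1 there had a difference of -0.33 and an adjusted p of 0.0653, or 0.0202 without TIR1 untreated replicate 1, 0.0403 with no filter and 0.0455 in the groups alone. For WAPL-NIPBL they were Il6st at -0.47 (SE 0.0906, adjusted p = 0.00145) and Pim1 at -0.44 (SE 0.115, adjusted p = 0.0172). The Pim1 call was lost without untreated TIR1 replicate 3 (0.0593) or untreated WAPL-NIPBL replicate 2 (0.0607). Pim3 was not called for WAPL-NIPBL (-0.12, adjusted p = 0.488). Stat3 was not called for PDS5AB-NIPBL (0.12, adjusted p = 0.491) or WAPL-NIPBL (0.04, adjusted p = 0.874). Neither was Gbx2 (-0.16, adjusted p = 0.702, and -0.02, adjusted p = 0.967). In the groups alone Lifr had an adjusted p of 0.0365 for PDS5AB-NIPBL and 0.0322 for WAPL-NIPBL, against 0.143 and 0.23 over all libraries. The block gave 0.0074 and 0.0192 for them and 0.00107 for Pim1 in PDS5AB-NIPBL cells. Its numbers did not pair the TIR1 libraries, and it called 25.1% (PDS5AB-NIPBL) and 22.3% (WAPL-NIPBL) of all genes. The Il6st difference from TIR1 was negative and called in all 4 degron lines. In WAPL, PDS5AB-NIPBL and WAPL-NIPBL cells the Il6st effect itself was not called, so these differences lie beside the rise in TIR1. The effect of dTAG-13 cannot be told apart from that of losing NIPBL in these comparisons.

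The effect of adding NIPBL loss was compared within pairs of lines, whose samples share no library. PDS5AB-NIPBL minus PDS5AB gave 3 called genes, 2 positive and 1 negative, where 9.46% of all genes were called, 4.97% positive and 4.48% negative. Gbx2 differed by 1.18 (SE 0.217, adjusted p = 0.00061), with effects of -0.84 in PDS5AB cells and 0.34 in PDS5AB-NIPBL cells. Lifr differed by 0.48 (SE 0.129, adjusted p = 0.0162) and Jak1 by -0.46 (SE 0.0826, adjusted p = 0.000451). Lifr had effects of -0.64 and -0.16 in the lines, and Jak1 of 0.44 and -0.02. With the same-numbered libraries as a block, 5 genes were called, where 24.4% of all genes were. Il6st was then at 0.28 (adjusted p = 0.000713, against 0.0519 without the block) and Socs3 at -0.40 (adjusted p = 0.000148, against 0.0879). For Il6st the adjusted p was 0.0456 with RLE size factors, 0.0258 by DESeq2, and 0.0434, 0.0401 and 0.0243 without PDS5AB untreated replicate 1, PDS5AB-NIPBL untreated replicate 2 and PDS5AB-NIPBL treated replicate 3. For Socs3 it was 0.0477 without PDS5AB untreated replicate 1 and 0.0139 with no filter on low counts. Pim3 had a difference of -0.10 (SE 0.0939, adjusted p = 0.565) and Stat3 one of -0.06 (SE 0.0996, adjusted p = 0.793).

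WAPL-NIPBL minus WAPL gave 0 called genes by edgeR's quasi-likelihood test, where 5.19% of all genes were called, 3.03% positive and 2.16% negative. At an unadjusted p under 0.05 there were 2, and DESeq2 called 0. With the block 3 were called, where 15.5% of all genes were. They were Pim3 at 0.23 (adjusted p = 0.0147, against 0.173), Pim1 at 0.27 (0.0118, against 0.21) and Stat3 at -0.19 (0.0275, against 0.353). The effects in WAPL and WAPL-NIPBL cells were -0.66 and -0.43 for Pim3, -0.48 and -0.21 for Pim1, and 0.39 and 0.21 for Stat3. Gbx2 had a difference of -0.07 (SE 0.208, adjusted p = 0.926). Both pairs of lines also differ in RAD21-Halo and in dTAG-13, which cannot be told apart from NIPBL loss.

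PDS5AB minus WAPL gave 3 called genes, 1 positive and 2 negative, where 12.5% of all genes were called, 7.38% positive and 5.11% negative. Gbx2 differed by -1.38 (SE 0.216, adjusted p = 4.73e-05), Jak1 by 0.38 (SE 0.0819, adjusted p = 0.00181) and Lifr by -0.44 (SE 0.129, adjusted p = 0.0202). The Lifr call was lost in the groups alone (0.0948) and without WAPL untreated replicate 1 (0.0509) or treated replicate 2 (0.0558). With the block 6 were called, where 27.3% of all genes were, with Socs3 at 0.30 (adjusted p = 0.00219, against 0.202), Pim1 at 0.28 (0.00598, against 0.12) and Il6st at -0.17 (0.0341, against 0.251) added. The adjusted p for Pim1 was 0.0306 without PDS5AB untreated replicate 1, 0.407 without PDS5AB treated replicate 1 and 0.396 without WAPL untreated replicate 2. That for Socs3 was 0.506 without PDS5AB untreated replicate 3. Stat3 had a difference of -0.05 (SE 0.0995, adjusted p = 0.82) and Pim3 one of 0.11 (SE 0.0936, adjusted p = 0.49).

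**Figure D4:**
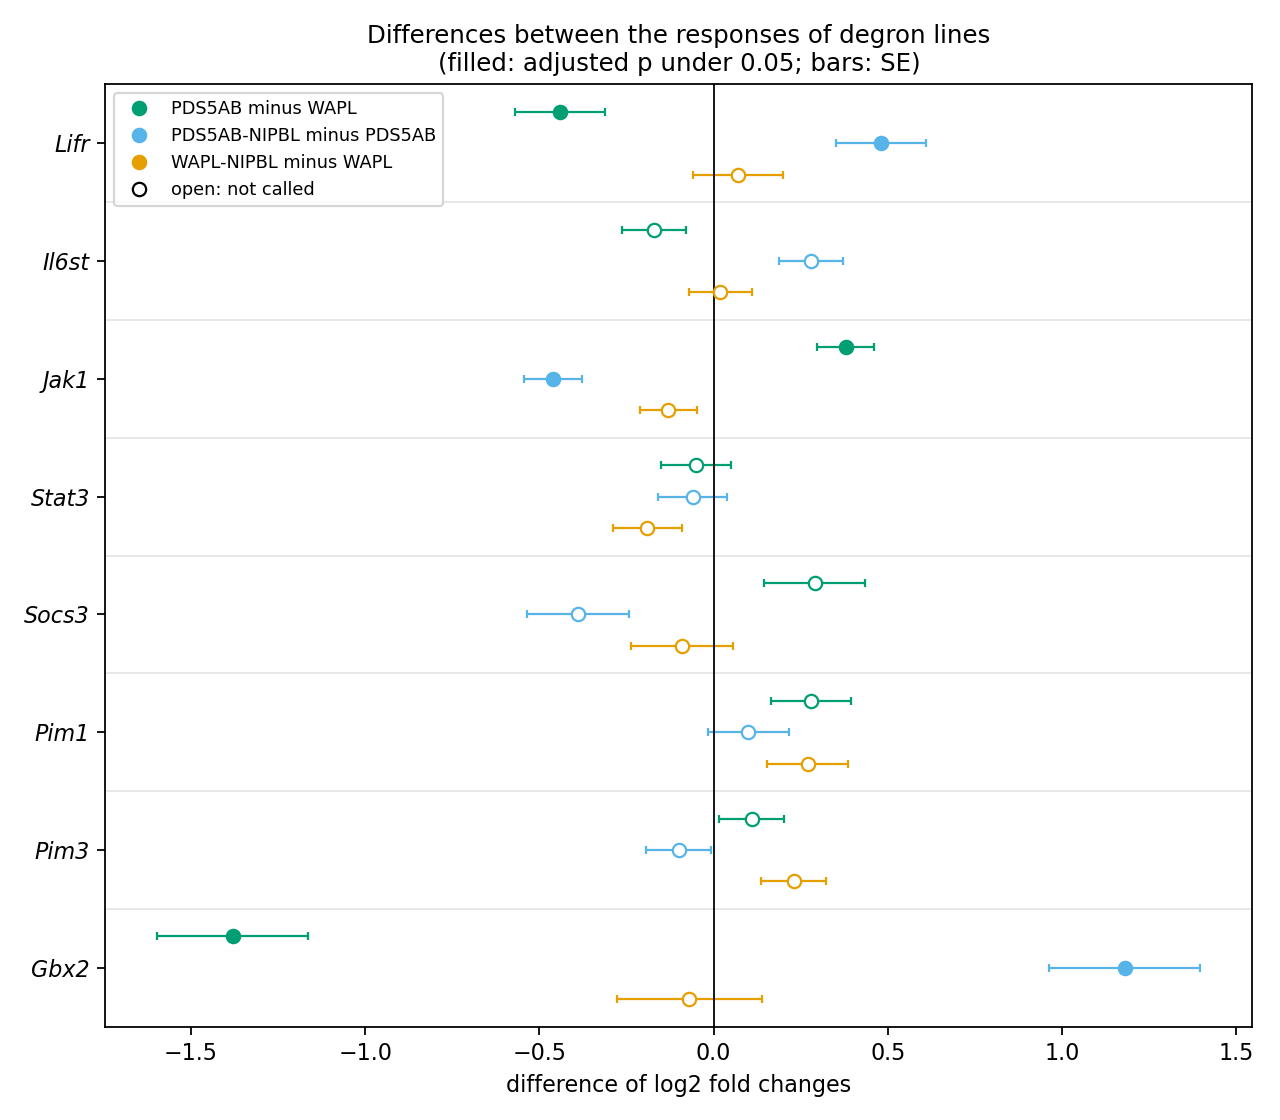
Differences between the log2 fold changes of pairs of degron lines for 8 genes (vertical axis), with SE as bars. Filled points passed an adjusted p of 0.05. Gbx2 lies at -1.38 for PDS5AB minus WAPL and at 1.18 for PDS5AB-NIPBL minus PDS5AB, and no point of WAPL-NIPBL minus WAPL is filled.

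The other genes of the pathway were taken from 6 lists, and their counts stand beside the shares of all genes called, which were 46% in PDS5AB, 32.8% in WAPL, 19.5% in PDS5AB-NIPBL, 8.57% in WAPL-NIPBL and 19.9% in TIR1 cells. Of 9 ligands of the interleukin-6 family, 6 were tested. Lif itself rose in TIR1 cells (11.4 to 21.4 CPM, group means), in PDS5AB cells (8.46 to 15.1 CPM), in PDS5AB-NIPBL cells (10.5 to 18.6 CPM) and in WAPL-NIPBL cells (10.3 to 13.9 CPM). Its log2 fold changes were 0.91 (SE 0.123, adjusted p = 3.99e-06), 0.83 (SE 0.127, adjusted p = 3.15e-06), 0.82 (SE 0.126, adjusted p = 1.76e-05) and 0.44 (SE 0.127, adjusted p = 0.0269). Lif was not called in WAPL cells, where its effect differed from that in TIR1 cells by -0.79 (SE 0.175, adjusted p = 0.00127). For PDS5AB minus WAPL the difference was 0.71 (SE 0.177, adjusted p = 0.00636). Lif was not called for PDS5AB minus TIR1, and for either combined line minus TIR1 0 of the 6 tested ligands were. In PDS5AB cells 4 ligands rose and 0 fell, with a median log2 fold change over the list of 0.64. The largest was Clcf1, which encodes a secreted cytokine, at 1.69, from 0.276 to 0.907 CPM. In WAPL cells 2 rose, with Ctf1 (cardiotrophin) at 0.63, and in TIR1 cells 2 rose, Lif and Osm. Osm, which encodes oncostatin M, was lower in untreated PDS5AB cells than in untreated TIR1 (5.63 against 22.1 CPM), a log2 difference of -1.98 (SE 0.168, adjusted p = 9.75e-11). It was also lower in untreated PDS5AB-NIPBL cells (10.2 CPM), with a log2 difference of -1.11 (SE 0.161, adjusted p = 3.15e-06). Its receptor gene Osmr was called higher in the first of these comparisons and was not called in the second.

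Of 5 other receptor subunits, 4 were tested. Il6ra, which confers binding of interleukin-6, fell in all 4 degron lines, with log2 fold changes of -1.43 in WAPL, -0.52 in PDS5AB, -0.88 in WAPL-NIPBL and -1.15 in PDS5AB-NIPBL cells. In WAPL cells it went from 26.4 to 9.80 CPM (SE of the log2 fold change 0.0947, adjusted p = 1.11e-12). Cntfr, the ciliary neurotrophic factor receptor subunit, rose in the same 4 lines, by 1.58, 0.63, 1.02 and 0.87 in that order. In PDS5AB cells 2 of the 4 rose and 1 fell, and in WAPL cells 2 rose and 2 fell.

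Of the 3 other JAK kinases, Tyk2 and Jak2 rose in PDS5AB cells, by 0.38 (SE 0.0739, adjusted p = 0.000113) and 0.29 (SE 0.117, adjusted p = 0.0404), the line in which Jak1 rose. None was called in WAPL, WAPL-NIPBL or TIR1 cells, and Jak3 rose in PDS5AB-NIPBL cells by 0.32 (adjusted p = 0.0271). Before treatment Jak3 was lower in PDS5AB cells (36.1 CPM) than in TIR1 cells (99.0 CPM), a log2 difference of -1.46 (SE 0.105, adjusted p = 3.2e-12). Of the 6 other STATs, 3 were called in PDS5AB cells (2 higher and 1 lower) and 5 in WAPL cells (3 higher and 2 lower). Stat5a and Stat5b rose in both, Stat5a by 0.61 and 0.79 and Stat5b by 0.38 and 0.52. Stat5a shares exon bases with Stat3, as given above.

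Of 15 other inhibitors, 6 were called in PDS5AB cells, 5 higher and 1 lower, 3 in WAPL cells (1 higher and 2 lower) and 5 in PDS5AB-NIPBL cells (4 higher and 1 lower). In PDS5AB and WAPL cells the shares of the list lay below the 46% and 32.8% of all genes. With the block the counts were 10, 7 and 6, where 56.6%, 45.1% and 32.1% of all genes were called. Socs2, an inhibitor best known in growth hormone signalling, fell in every degron line, with log2 fold changes of -1.85 in PDS5AB (SE 0.112, adjusted p = 1.14e-13), -1.42 in PDS5AB-NIPBL (SE 0.108), -0.87 in WAPL (SE 0.103) and -0.33 in WAPL-NIPBL cells (SE 0.1, adjusted p = 0.0324). In PDS5AB cells it went from 23.7 to 6.57 CPM while Socs3 rose. Socs1 rose there by 0.81 (SE 0.145, adjusted p = 3.34e-05) and Cish by 0.65 (SE 0.208, adjusted p = 0.0111). SOCS family members therefore moved in both directions in the same cells.

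Of 16 other genes reported to respond to STAT3, 13 were called in PDS5AB cells, 4 higher and 9 lower, with a median log2 fold change of -0.27. In WAPL cells 9 were called, 5 higher and 4 lower, with a median of -0.08. In PDS5AB-NIPBL cells 6 were called (2 higher, 4 lower), in WAPL-NIPBL cells 3 (1 higher, 2 lower) and in TIR1 cells 5 (3 higher, 2 lower). The block made these 10, 6 and 10, where 32.1%, 20.9% and 35.6% of all genes were called. Its numbers did not pair the TIR1 libraries. Ccnd1, which encodes cyclin D1, fell by 1.77 on the log2 scale in PDS5AB cells (65.8 to 19.3 CPM, SE 0.126, adjusted p = 3.57e-12). Sgk1, a serum-induced kinase, fell by 1.28 there, and Cebpd rose by 1.15. Klf4, a pluripotency factor, fell by 1.17 in WAPL cells (352 to 157 CPM, SE 0.103, adjusted p = 3.64e-10) and by 0.67 in WAPL-NIPBL cells, and rose by 0.57 in TIR1 cells (279 to 415 CPM). Its effect also differed between PDS5AB and TIR1 cells, with a difference of -1.43 (SE 0.144, adjusted p = 2.52e-08), beside -1.74 for WAPL minus TIR1 and -1.24 for WAPL-NIPBL minus TIR1. The lists were assembled with earlier results of these data known, and the genes on them respond to other pathways too.

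The 9 genes did not share one pattern over the 30 libraries. Pearson's r of log2 CPM was 0.89 between Il6st and Pim1, 0.82 between Lifr and Il6st and 0.79 between Il6st and Gbx2, and it was -0.78 between Lifr and Socs3. Stat3 had an r of 0.46 with Socs3, 0.17 with Pim1 and -0.52 with Pim3. Among the 12887 well-counted genes (mean over 50 counts or equal to it) outside the 9 and the lists, Dcp2 was most like Lifr (r = 0.966) and Acss1 most like Il6st (r = 0.962). Sec16a was most like Stat3 (0.959), Cbx6 most like Pim3 (0.954), Wdr70 most like Pim1 (0.947) and Kat14 most like Gbx2 (0.913). Bcar1 was most like Socs3 (0.885), Qpctl most like Jak1 (0.856) and Rev1 most like Osmr (0.824). These correlations are descriptions over libraries that share lines, treatments and runs of library numbers.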

How the data were processed

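Polyadenylated RNA from 30 libraries in 10 groups of 3 was analysed from 1 deposited table of raw counts per gene. Per the file headers the authors made these counts with featureCounts 2.0.1 in paired mode, with no strand option, on GENCODE vM23 gene models, although the labels describe a stranded kit. STAR 2.7.7a and the builds mm10 and GRCm38.p6 are named in the submitters' processing notes. Of 55421 gene IDs, 99.5% had a symbol, totals were 19632704 to 45539021 counts, and no 2 libraries held identical values.

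Counts were scaled by TMM and fitted with edgeR 4.0.16 (R 4.3.3) by quasi-likelihood, with 1 mean per group over all 30 libraries, after filterByExpr with a minimum count of 10. Adjusted p-values are Benjamini-Hochberg over 19868 genes, the SE is the log2 fold change divided by the root of F, and the threshold was 0.05. The script was tested on simulated data. The 16 comparisons were 5 treatment effects, 4 untreated lines against TIR1 and 7 differences of effects. The alternatives were a replicate block, a fit of the compared groups alone, DESeq2 1.42.0, RLE scaling, every gene with a count kept, and each library left out. The block was by line and replicate number, or by replicate number over all lines for the comparisons of untreated lines.

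Same-numbered untreated and treated libraries of a line deviated together in all 4 degron lines, with correlations of 0.109 to 0.333 over 3 pairs per line, and in TIR1 cells they did not (-0.01 to 0.057). The pairing is thus read from the data and the shared numbers, since the labels do not state it.

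The 9 genes and the lists (interleukin-6 family ligands, other receptor subunits, other JAK kinases, other STATs, inhibitors, other reported STAT3-responsive genes, and markers of stem cells, feeder cells, primitive endoderm, neural progenitors and mesoderm) were chosen with earlier results of these data known. Every one of the 9 is named in each treatment comparison, and at most the 3 called genes with the largest change are named per list and comparison. A gene of the ligand list is not reported here by name. For likeness, the genes with the highest Pearson r were named among those with a mean of at least 50 counts.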

Additional observations from a re-analysis of the deposited data

Results flagged for a closer look

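The effect of treatment differed between lines, by a test of the difference of log2 fold changes in edgeR, for the following genes. PDS5AB cells differed from TIR1 cells for Gbx2 (-1.34), Lifr (-0.78), Il6st (-0.65), Socs3 (0.54), Pim1 (-0.43) and Jak1 (0.40). WAPL cells differed from TIR1 cells for Pim1 (-0.71), Il6st (-0.48) and Pim3 (-0.35). PDS5AB-NIPBL cells differed from TIR1 cells for Il6st (-0.37) and Pim3 (-0.34), and WAPL-NIPBL cells for Il6st (-0.47) and Pim1 (-0.44). All differences from TIR1 rest on the same 6 TIR1 libraries, whose untreated and treated members lie in separate runs of library numbers.

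PDS5AB-NIPBL cells differed from PDS5AB cells for Gbx2 (1.18), Lifr (0.48) and Jak1 (-0.46). PDS5AB cells differed from WAPL cells for Gbx2 (-1.38), Lifr (-0.44) and Jak1 (0.38). These comparisons between degron lines use no TIR1 library. Groups of 3 libraries were not put to the test for single outlying values.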

How the results depend on the processing

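Of the 144 gene and comparison results, 51 were called and 38 of these stayed called in the same direction under every alternative run, while 13 lost the call under at least 1, as given in the report. The group levels per kilobase moved by less than 1 SD with RLE size factors in 90 of 90 cases. Osmr in untreated WAPL-NIPBL against untreated TIR1 cells reversed without TIR1 replicate 1, from 0.51 to -0.06, and neither value was called, while without TIR1 replicate 3 it was 4.95.

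With the replicate block the count of called genes was 4 for the PDS5AB-NIPBL effect, 4 for the WAPL-NIPBL effect, 2 for untreated WAPL, 6 for WAPL minus TIR1, 4 for PDS5AB-NIPBL minus TIR1, 5 for PDS5AB-NIPBL minus PDS5AB, 3 for WAPL-NIPBL minus WAPL and 6 for PDS5AB minus WAPL. Without the block these were 2, 2, 1, 3, 2, 3, 0 and 3. In that order 32.1%, 20.9%, 18.3%, 35.4%, 25.1%, 24.4%, 15.5% and 27.3% of all genes were called with the block. Without it 19.5%, 8.57%, 14%, 20.7%, 10.1%, 9.46%, 5.19% and 12.5% were. For untreated lines the block was the replicate number over all lines. Same-numbered untreated WAPL and TIR1 libraries did not deviate together (correlations of -0.042 to 0.014). In TIR1 cells, which the check did not pair, the block gave 5 called genes, Stat3 added (adjusted p = 0.00135), where 35.6% of all genes were called. It gave 8 in PDS5AB and 6 in WAPL cells, against 7 and 4 without the block. The block added 26 calls over all comparisons and removed 0. With the compared groups alone the count was 4 for the WAPL-NIPBL effect, 0 for untreated WAPL and 4 for PDS5AB-NIPBL minus TIR1, and DESeq2 gave 2 for untreated WAPL. The cause was not tested. Shares of all genes are not given here for the groups alone, for DESeq2 or for the fits below with 1 library left out.

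Leaving out 1 library gave 2 to 5 called genes for TIR1, 7 to 8 for PDS5AB, 4 to 5 for WAPL, 2 to 3 for PDS5AB-NIPBL and 1 to 2 for WAPL-NIPBL. It gave 4 to 4 for untreated PDS5AB, 0 to 2 for untreated WAPL, 2 to 4 for untreated PDS5AB-NIPBL and 3 to 4 for untreated WAPL-NIPBL. For differences from TIR1 it gave 6 to 7 for PDS5AB, 3 to 4 for WAPL, 1 to 3 for PDS5AB-NIPBL and 1 to 2 for WAPL-NIPBL. It gave 3 to 5 for PDS5AB-NIPBL minus PDS5AB, 0 to 0 for WAPL-NIPBL minus WAPL and 2 to 4 for PDS5AB minus WAPL.

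Depth limited Osmr, which had at most 23 counts in a library.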
